A study of Mus musculus with 13 samples.

Results

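The loci of 5 regulators of red cell and platelet formation and of the adult globin genes were examined for chromatin accessibility in haematopoietic stem cells (HSCs) that had restored different sets of blood lineages. The table of the study lists 115295 accessible regions, and 77 of them, the member regions here, have their midpoint in 1 of 7 windows drawn on the mm9 genome around Epor, Klf1, Gfi1b, Nfe2, Zfpm1, the beta-globin genes with their control region, and the alpha-globin genes. The windows were set by position and not by a measured value, though with earlier results of these data known. They were chr9:21740000-21790000 for Epor, chr8:87410000-87445000 for Klf1, chr2:28440000-28500000 for Gfi1b, chr15:103060000-103105000 for Nfe2 and chr8:124750000-124870000 for Zfpm1. Those of the globins were chr7:110950000-111030000 (beta) and chr11:32130000-32202000 (alpha). Accessibility was measured with Omni-ATAC-seq, an assay whose transposase cuts and tags open DNA. Each of the 13 libraries was made from 500 donor-derived HSCs of recipient bone marrow, with the strain given as C57BL/6.

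Recipients had each received 1 Vwf+ HSC and were classed by their blood over 16 weeks. The 4 multilineage libraries are called MUL-HSC, the 6 libraries of PEM-restricted recipients PEM-HSC, and the 3 libraries of P-restricted (platelet-restricted) recipients PLT-HSC. All 13 were sorted with the same phenotype, LSK Flt3- CD150+ CD48- CD45.2+ and Gata1-, so cells positive for Gata1 lie outside all groups. Library totals ranged from 1276962 to 3851165 counts, and the member regions took 0.105% to 0.126% of them. PEM-HSC replicate 3 had the lowest TMM scaling factor, 0.965 against 0.989 to 1.02 in the other 12 libraries. No label ties a library to its own recipient. The p-values below set the difference between groups against the spread between these libraries, and that spread may be technical. Markers of HSCs and of other cell types were not analysed here, because no annotation of the build was used.

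Epor encodes the receptor for erythropoietin, the hormone that keeps red cell precursors alive. Klf1 is a zinc finger activator of red cell genes that binds CACCC-type boxes, among them the one of the beta-globin promoter. Gfi1b is a zinc finger repressor needed for red cells and platelets, Nfe2 is the large subunit of the factor NF-E2, needed for platelet release and active at the globin control regions, and Zfpm1 (FOG1) is the cofactor through which GATA1 acts in both lineages. The globin genes are late targets of these factors and are read at high level only in maturing red cells.

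Sequence before the gene starts is shown to let the core letters read by GATA factors, Klf1 and NF-E2 be seen at these loci. The table of gene start sequences used (RefSeq, GRCm38.p6) matched 5 of the 7 genes looked up by symbol, and no sequence is printed for Nfe2 and Hbb-b1. The adult beta-globin gene Hbb-bs is shown as well, from the C57BL/6J assembly. Each sequence is the 250 bases before the start, 5′ to 3′ on the gene's strand. Capitals mark GATAA (the core of a GATA site), CACCC (the core of a Klf1 site) and TGANTCA (the core of an NF-E2 site), searched on both strands, and words that adjoin can share letters at their ends.
Klf1, chr8:84901732-84901981, plus strand: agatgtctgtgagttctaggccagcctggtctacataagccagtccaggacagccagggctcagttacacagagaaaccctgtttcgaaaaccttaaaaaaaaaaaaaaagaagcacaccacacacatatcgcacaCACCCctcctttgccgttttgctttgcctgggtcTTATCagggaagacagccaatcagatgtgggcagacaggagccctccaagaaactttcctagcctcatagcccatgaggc
Epor, chr9:21963577-21963826, minus strand: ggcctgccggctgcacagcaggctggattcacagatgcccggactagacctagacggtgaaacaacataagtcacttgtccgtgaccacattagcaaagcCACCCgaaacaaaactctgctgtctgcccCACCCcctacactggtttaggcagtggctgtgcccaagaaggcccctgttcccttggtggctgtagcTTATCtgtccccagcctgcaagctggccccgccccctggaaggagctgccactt
Gfi1b, chr2:28621983-28622232, minus strand: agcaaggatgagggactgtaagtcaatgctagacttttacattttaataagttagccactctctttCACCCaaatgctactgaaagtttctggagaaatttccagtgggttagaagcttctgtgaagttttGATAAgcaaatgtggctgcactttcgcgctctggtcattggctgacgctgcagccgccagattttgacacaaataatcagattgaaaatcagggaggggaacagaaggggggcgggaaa
Zfpm1, chr8:122281891-122282140, plus strand: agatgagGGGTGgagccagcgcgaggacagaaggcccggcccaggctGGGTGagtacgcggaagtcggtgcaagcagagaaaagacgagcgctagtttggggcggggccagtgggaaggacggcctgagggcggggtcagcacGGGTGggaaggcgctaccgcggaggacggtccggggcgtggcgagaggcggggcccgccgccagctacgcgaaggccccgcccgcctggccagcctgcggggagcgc
Hba-a1, chr11:32283422-32283671, plus strand: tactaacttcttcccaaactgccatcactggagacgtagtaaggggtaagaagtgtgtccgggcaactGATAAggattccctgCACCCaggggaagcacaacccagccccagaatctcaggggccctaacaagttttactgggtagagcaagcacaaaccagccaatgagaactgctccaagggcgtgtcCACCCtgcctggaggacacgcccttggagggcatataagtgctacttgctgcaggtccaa
Hbb-bs, chr7:103827929-103828178, minus strand: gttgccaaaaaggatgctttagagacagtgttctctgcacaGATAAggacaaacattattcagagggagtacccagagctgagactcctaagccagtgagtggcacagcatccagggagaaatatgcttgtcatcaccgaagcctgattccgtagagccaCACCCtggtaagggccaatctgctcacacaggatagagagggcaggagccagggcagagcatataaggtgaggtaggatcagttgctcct

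Klf1, Epor, Gfi1b, Hba-a1 and Hbb-bs each held 1 GATA word and 1 or 2 Klf1 words, and Zfpm1 held 3 Klf1 words and no GATA word. The NF-E2 word was in none of the 6 sequences. Of 32851 mouse gene starts in the table, 22.6% held the GATA word, 52.0% the Klf1 word, 10.1% both of these and 6.75% the NF-E2 word within 250 bases. The Zfpm1 sequence was 73.2% G and C, and the Gfi1b sequence 44.4%, against a median of 52.4% over all gene starts. These positions are in another build than the counts, so no accessible region is placed on a gene start, exon or intron below. A region called by the name of a gene is a region of the window around that gene. In RefSeq gene order the neighbours are Gcdh and Dnase2a beside Klf1, Hnrnpa1 and Copz1 beside Nfe2, Gtf3c5 and Tsc1 beside Gfi1b, Swsap1 and Rgl3 beside Epor, Zfp469 and Trhr2 beside Zfpm1, and Nprl3 close to the alpha-globin genes, and the windows may hold regions of such genes.

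Of the 77 member regions, 58 (75.3%) passed the filter on counts and were tested, against 51.5% of all regions (59408). The 19 left out held 21 to 110 counts over all 13 libraries. They comprised 5 regions of Gfi1b, 4 of Nfe2, 4 of the alpha-globin window, 2 each of Epor and the beta-globin window, and 1 each of Klf1 and Zfpm1. Members were mostly well open: 46 of the 77 lay above the 75th percentile of all regions in CPM (counts scaled to a common library size) per kb of region, 21 above the 90th, and 14 below the median.

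Accessibility per kb of region put the windows in an order that held across libraries for its upper part. The windows may hold regions of neighbouring genes, so this is not an order of the genes they are named after. The Nfe2 window came first at 51.0 ± 4.32 CPM per kb (SD, n = 13), then that of Klf1 at 38.8 ± 4.56 and that of Zfpm1 at 29.7 ± 1.92. Each of these steps was seen in 13 of 13 libraries. The alpha-globin window (19.0 ± 1.03), Gfi1b (19.0 ± 2.25) and Epor (18.02 ± 3.33) did not separate, since alpha-globin exceeded Gfi1b in 7 of 13 libraries and Epor in 8. The beta-globin window was last at 15.2 ± 1.55 CPM per kb, below alpha-globin in 13 and below Epor in 10 of 13 libraries. Regions covered 14.5% of the Zfpm1 window and 3.69% of the beta-globin window.

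No member region passed the threshold between PLT-HSC and MUL-HSC (0 of 58 at an adjusted p of 0.05, edgeR quasi-likelihood test), where 2.41% of all tested regions did (1.13% higher and 1.28% lower in PLT-HSC). The count over all regions, 1431, depended on single libraries: with PLT-HSC replicates 1 to 3 left out in turn it was 350, 609 and 2034. Without MUL-HSC replicates 1 to 4 in turn it was 559, 635, 2116 and 485, and with 1 surrogate variable as a covariate it was 4. DESeq2 also called 0 members, with 4 members at an unadjusted p under 0.05. By edgeR, 7 members had an unadjusted p under 0.05 (12.1%), 3 higher and 4 lower in PLT-HSC, against 15.4% of all regions (7.47% higher, 7.93% lower). The values of the groups did not overlap in 5 members (8.62%; 2 higher, 3 lower), against 13.2% of all regions (6.67% higher, 6.56% lower). Both shares of members lay somewhat below those of all regions, but they rest on only 7 and 5 members and the gaps were not tested. Members were split evenly, 29 with a positive and 29 with a negative log2 fold change, and their median was -0.0044 against 0.012 over all regions.

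Between PEM-HSC and MUL-HSC, 0 of 58 members passed by edgeR and 0 by DESeq2 (7 at its unadjusted p under 0.05), where 0.832% of all regions passed by edgeR (0.242% higher, 0.589% lower). That count, 494, was 83, 83, 1215 and 61 without MUL-HSC replicates 1 to 4 in turn, and 180, 248, 428, 777, 166 and 553 without PEM-HSC replicates 1 to 6. With 1 surrogate variable it was 1. At an unadjusted p under 0.05 there were 9 (15.5%), 2 higher and 7 lower in PEM-HSC, against 13.6% of all regions (6.20% higher, 7.45% lower). The share of members was near that of all regions. Groups did not overlap in 2 members (3.45%), both lower in PEM-HSC, against 3.59% of all regions (1.51% higher, 2.08% lower). Members set between PLT-HSC and PEM-HSC gave 0 of 58 by either tool (0.00168% of all regions by edgeR). There were 0 at an unadjusted p under 0.05 by either tool (by edgeR 4.61% of all regions; 2.45% higher, 2.16% lower) and 0 without overlap (2.29%; 1.32% higher, 0.968% lower). Both comparisons with MUL-HSC use the same MUL-HSC libraries.

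These counts do not show that the loci are alike in the groups, and the 95% intervals of single regions (not adjusted for their number) give what remains possible. With PLT-HSC set against MUL-HSC, the interval lay within a 2-fold change in 45 of 58 members and within 1.5-fold in 17. The numbers were 47 (2-fold) and 22 (1.5-fold) where PEM-HSC was set against MUL-HSC. Between the restricted groups they were 51 (2-fold) and 25 (1.5-fold). In the beta-globin window all 5 tested regions had intervals within 2-fold in each of the 3 comparisons, as did all 4 of Klf1 and both of Epor. Of the 13 intervals that reached 2-fold in PLT-HSC against MUL-HSC, 9 were in the Zfpm1 window, 3 at Gfi1b and 1 at Nfe2.

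**Figure D1:**
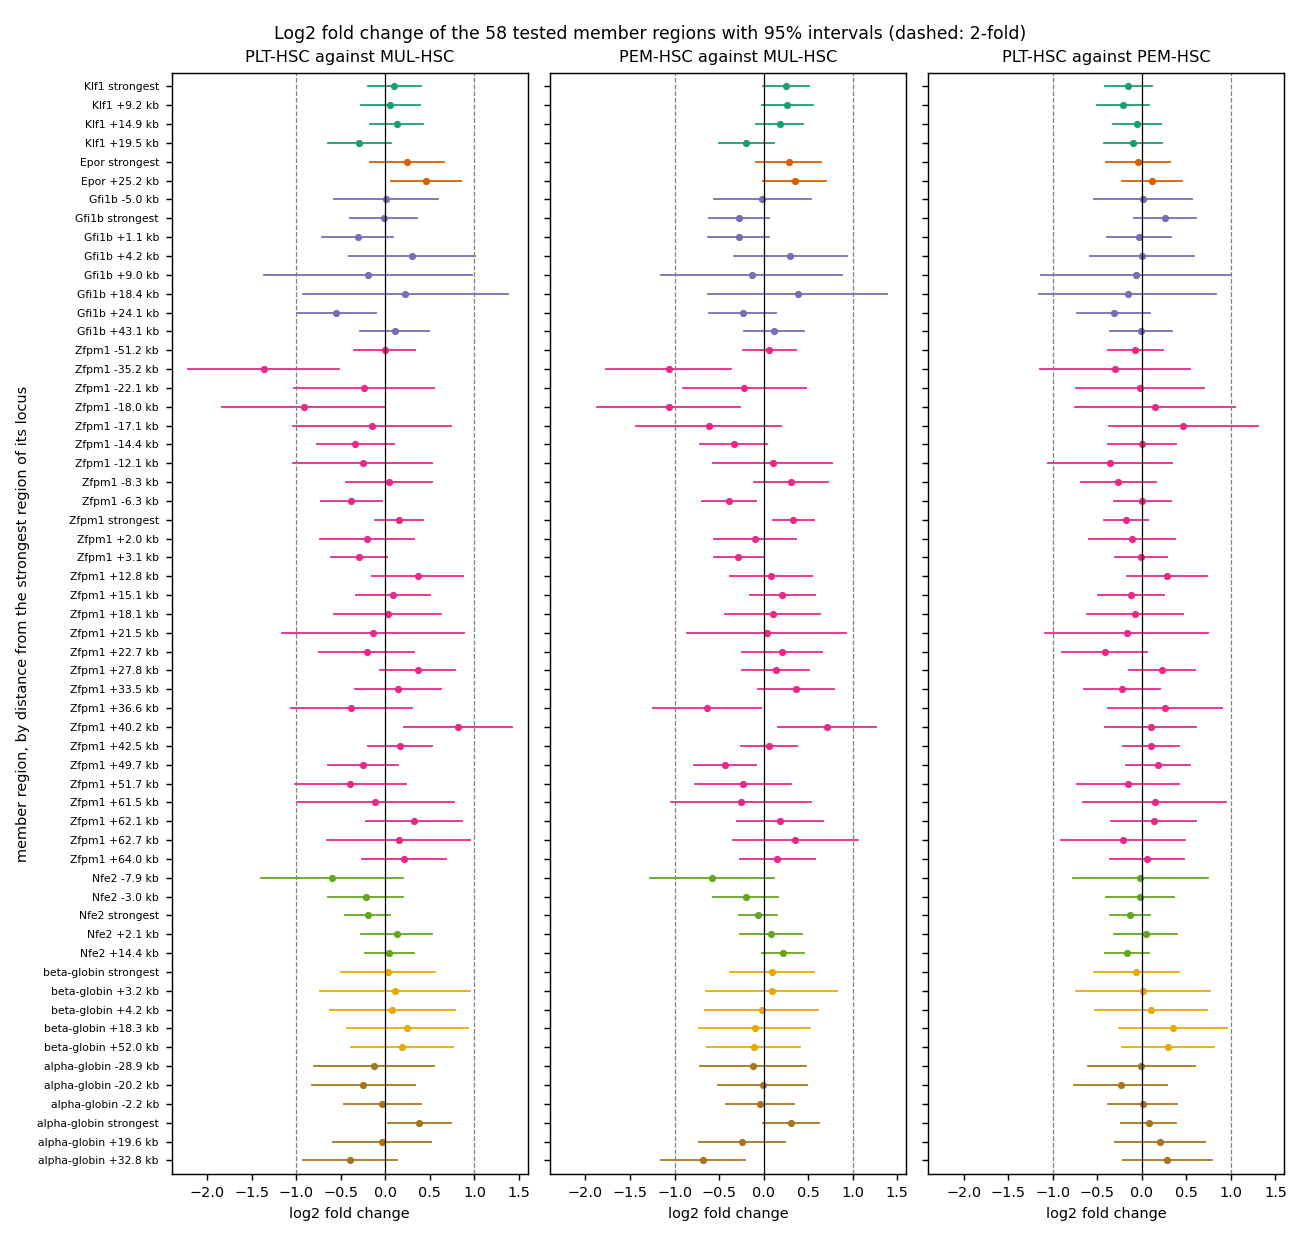
Log2 fold change (x axis) of the 58 tested member regions with 95% intervals in the 3 comparisons. Rows are ordered by locus and named by their distance in kb from the strongest region of the locus, and dashed lines mark 2-fold. Most points lie within 2-fold of 0, and the Zfpm1 region at -35.2 kb is the farthest to the left in the left panel.

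Sums over all regions of a window, in CPM, describe each locus as a whole and carry no test. At Epor the MUL-HSC libraries were close together at 51.3, 48.8, 53.7 and 51.5 CPM in replicates 1 to 4. PLT-HSC libraries had 67.4, 55.6 and 72.6 CPM, and PEM-HSC libraries ran from 48.1 to 85.4 with a median of 59.3. All 3 PLT-HSC values thus lay above all 4 MUL-HSC values, whereas PEM-HSC overlapped both groups. Of all single regions tested, 13.2% did not overlap between PLT-HSC and MUL-HSC (6.67% higher in PLT-HSC). Sums of 7 windows were looked at, so the separation at Epor does not by itself set this locus apart. The region at +25.2 kb from the strongest region of the locus (chr9:21765886-21767501, mm9) held 57.8% of the summed level. It had 28.9, 24.8, 37.1 and 24.4 CPM in MUL-HSC, 41.3, 32.7 and 44.2 CPM in PLT-HSC, and 27.4 to 50.5 CPM with a median of 33.9 in PEM-HSC. MUL-HSC replicate 3 lay within the PLT-HSC range and the other three lay below it. The change in PLT-HSC against MUL-HSC on the log2 scale was 0.46 ± 0.19 (SE; unadjusted p = 0.0232, adjusted p = 0.229, edgeR quasi-likelihood test). This region was singled out after its values were seen. The region of the Epor window with the highest level per kb, chr9:21741027-21741879, lies near the edge of the window and was not placed on a gene. Its log2 fold change was 0.24 (95% interval -0.17 to 0.65) in the same comparison, and the groups overlapped. That value was 0.68 with 1 surrogate variable (adjusted p = 0.764, edgeR quasi-likelihood test), outside the interval, and 0.12 without MUL-HSC replicate 3.

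The Klf1 window had 5 regions, 3 of them above the 90th percentile in CPM per kb. Its sums were 146, 160, 138 and 156 CPM in MUL-HSC and 139.9, 142 and 172 CPM in PLT-HSC, and in PEM-HSC they ran from 133 to 199.6 with a median of 168. No group stood apart. The strongest region (chr8:87417376-87418182) reached 59.3 CPM per kb and had log2 fold changes of 0.10 (95% interval -0.20 to 0.40) in PLT-HSC and 0.25 (-0.0079 to 0.51) in PEM-HSC, each against MUL-HSC. PEM-HSC libraries ran from 35.7 to 64.8 CPM in that region, around both MUL-HSC (39.1 to 46.2) and PLT-HSC (43.3 to 48.5). With 1 surrogate variable these changes were 0.32 in PLT-HSC and 0.42 in PEM-HSC.

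At Gfi1b the sums were 186, 152, 137 and 137 CPM in MUL-HSC and 132, 129.9 and 157 CPM in PLT-HSC. PEM-HSC ran from 128 to 162 CPM with a median of 134, so the groups overlapped and MUL-HSC replicate 1 was the highest of the 13 libraries. The Gfi1b region at +24.1 kb (chr2:28477195-28478402) had 31.4, 28.9, 19.6 and 17.9 CPM in MUL-HSC and 13.02, 16.8 and 18.8 CPM in PLT-HSC. PEM-HSC libraries lay between 15.6 and 24.0 CPM there, with a median of 20.6. MUL-HSC replicates 1 and 2 were high and replicates 3 and 4 overlapped the PLT-HSC range or lay near it. Its log2 fold change in PLT-HSC against MUL-HSC was -0.55 ± 0.22 (SE; unadjusted p = 0.0164, adjusted p = 0.193, edgeR quasi-likelihood test). It shrank to -0.22 without the libraries under 2000000 counts (adjusted p = 0.797, same test) and to -0.11 with 1 surrogate variable (adjusted p = 0.985, same test). Against PEM-HSC it was -0.32 ± 0.20 (adjusted p = 1.0, same test), and -0.18 without PLT-HSC replicate 1.

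The strongest Gfi1b region per kb (chr2:28453208-28454112) had 48.8, 35.6, 31.1 and 30.1 CPM in MUL-HSC and 28.0, 40.2 and 38.6 CPM in PLT-HSC. In PEM-HSC it ran from 19.7 to 35.4 CPM with a median of 30.8. Groups overlapped, with a log2 fold change of 0.26 (95% interval -0.088 to 0.60) for PLT-HSC against PEM-HSC. Its change against MUL-HSC was -0.019 (-0.40 to 0.36) in PLT-HSC and -0.28 (-0.61 to 0.061) in PEM-HSC. The latter was -0.11 without MUL-HSC replicate 1, and both changed sign under other settings.

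The summed Nfe2 levels were 233, 210.0, 212 and 215 CPM in MUL-HSC, 187, 185 and 231 CPM in PLT-HSC, and 185 to 239 CPM with a median of 218 in PEM-HSC, which overlapped. The Nfe2 window was the strongest per kb, with 42.8% of its summed CPM in 1 region (chr15:103088289-103089261). That region had 103, 91.0, 98.8 and 93.0 CPM in MUL-HSC and 69.0, 90.6 and 93.3 CPM in PLT-HSC, and 77.3 to 107 CPM with a median of 90.1 in PEM-HSC. PLT-HSC replicate 1 was the lowest library and the other two PLT-HSC libraries lay at or near the MUL-HSC range. On the log2 scale the change was -0.20 (95% interval -0.45 to 0.051) in PLT-HSC and -0.067 (-0.28 to 0.15) in PEM-HSC, each against MUL-HSC. At this depth, 689 to 1317 counts per group, a change of 1.5-fold lies outside both intervals. Without PLT-HSC replicate 1 the change in PLT-HSC was -0.072.

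Zfpm1 held 29 of the 77 member regions, 11 of them above the 90th percentile of all regions in CPM per kb. Its summed level was 531, 499, 512 and 505 CPM in MUL-HSC and 489, 502 and 535 CPM in PLT-HSC. PEM-HSC libraries ran from 493 to 618 CPM with a median of 512, and without PEM-HSC replicate 3 their mean fell from 526 to 507 CPM. The locus sums thus overlapped in all 3 groups, while single regions within the window leaned in both directions. With 28 tested regions, 4 had an unadjusted p under 0.05 in PLT-HSC against MUL-HSC (1 higher, 3 lower), which is 14.3% against 15.4% of all regions. In PEM-HSC against MUL-HSC there were 8 (2 higher, 6 lower), which is 28.6% against 13.6% of all regions. Over all members the share was 15.5%, and of the other windows only alpha-globin had such a region, 1 of 6. The Zfpm1 regions lie in 1 window and were measured in the same libraries, so they are not independent, and their share was not tested.

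**Figure D2:**
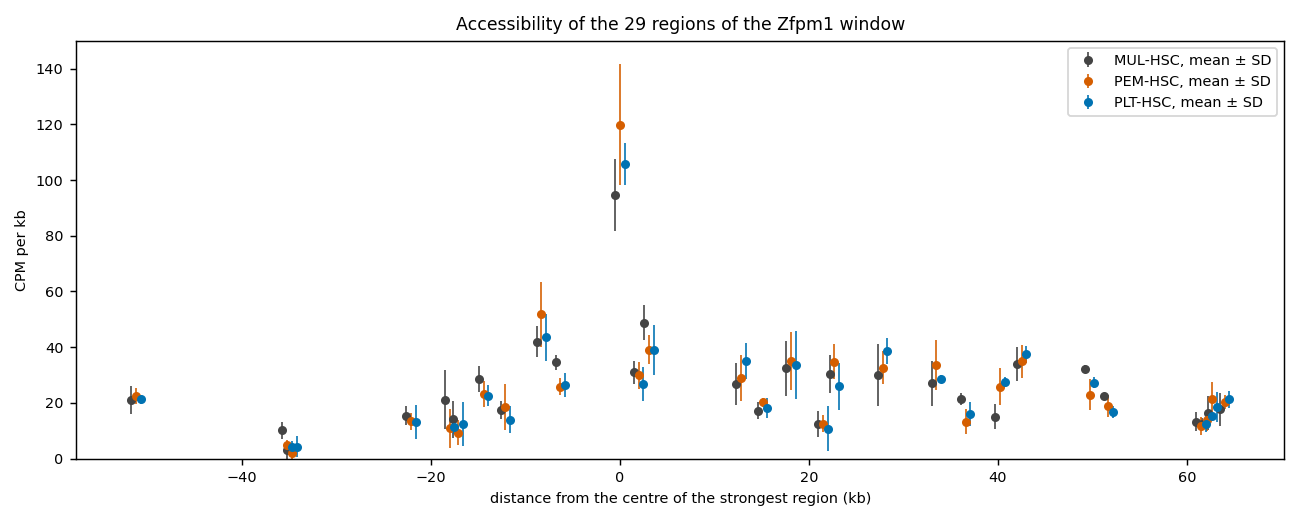
CPM per kb (y axis) of the 29 regions of the Zfpm1 window by distance from the centre of its strongest region (x axis, kb), as mean ± SD of MUL-HSC (n = 4), PEM-HSC (n = 6) and PLT-HSC (n = 3), drawn side by side. The strongest region stands at 109 CPM per kb over the 13 libraries, and the next at 46.8.

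The strongest Zfpm1 region (chr8:124804947-124806158) was also the strongest of all members per kb, at the 99.9th percentile of all regions. It had 132, 99.2, 124 and 103 CPM in MUL-HSC, 122, 139 and 123 CPM in PLT-HSC, and 122 to 194 CPM with a median of 135 in PEM-HSC. PEM-HSC replicate 3 was the highest and the groups overlapped. The log2 fold change in PEM-HSC against MUL-HSC was 0.33 ± 0.11 (SE; unadjusted p = 0.0068, adjusted p = 0.164, edgeR quasi-likelihood test). Without PEM-HSC replicate 3 it was 0.24.

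The smallest p of any member belonged to the Zfpm1 region at -35.2 kb (chr8:124769976-124770702), a weak region at 6.25 CPM per kb. MUL-HSC had 7.70, 4.13, 8.03 and 9.53 CPM, PLT-HSC 1.30, 3.27 and 4.29 CPM, and PEM-HSC 1.72 to 5.16 CPM with a median of 3.39. MUL-HSC replicate 2, the library with the fewest counts of its group, overlapped both restricted groups and the other three lay above them. The log2 fold change was -1.37 ± 0.42 in PLT-HSC (SE; adjusted p = 0.0730, edgeR quasi-likelihood test) and -1.07 ± 0.34 in PEM-HSC (adjusted p = 0.134), each against MUL-HSC. These values rest on 58 counts over the MUL-HSC libraries, 51 over PEM-HSC and 24 over PLT-HSC. The region passed the filter on counts mainly through MUL-HSC libraries, where it is high, so its test is not independent of that level. With no filter the log2 fold change against MUL-HSC was -1.36 in PLT-HSC (adjusted p = 0.0774, edgeR quasi-likelihood test) and -1.05 in PEM-HSC (adjusted p = 0.165, same test). Without PLT-HSC replicate 3 the log2 fold change in PLT-HSC was -1.80 and passed the threshold (adjusted p = 0.0400). Over the alternatives in which the region was tested, this change ranged from -1.80 to -0.98, with adjusted p from 0.0400 to 0.764 (edgeR or DESeq2). The filter of a mean of at least 20 counts left the region out. In PEM-HSC against MUL-HSC it was also not tested with the compared groups alone.

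The Zfpm1 region at +40.2 kb (chr8:124845540-124845933) leaned the other way. MUL-HSC had 4.49, 5.79, 5.02 and 8.39 CPM, PLT-HSC 10.1, 10.7 and 11.5 CPM, and PEM-HSC 6.26 to 13.8 CPM with a median of 9.94. All PLT-HSC libraries exceeded all MUL-HSC libraries, and PEM-HSC overlapped both. Its log2 fold change was 0.81 ± 0.30 in PLT-HSC (SE; adjusted p = 0.151, edgeR quasi-likelihood test) and 0.71 ± 0.27 in PEM-HSC (adjusted p = 0.211), each against MUL-HSC. At -6.3 kb (chr8:124798843-124799687, singled out after its values were seen), MUL-HSC had 28.9, 32.2, 27.1 and 28.2 CPM, above all PLT-HSC libraries (18.9, 21.5 and 26.1) and all PEM-HSC libraries (18.03 to 25.2, median 21.7). The log2 fold changes there were -0.38 ± 0.17 in PLT-HSC and -0.39 ± 0.15 in PEM-HSC (adjusted p = 0.268 and 0.221, edgeR quasi-likelihood test). The region at +49.7 kb (chr8:124854904-124855670), also singled out after its values were seen, had the same order. MUL-HSC had 23.6 to 25.6 CPM there, PLT-HSC 19.5 to 22.4 and PEM-HSC 10.3 to 21.8. Its log2 fold changes were -0.25 ± 0.19 in PLT-HSC and -0.43 ± 0.17 in PEM-HSC (adjusted p = 0.583 and 0.234, same test). The region at +22.7 kb (chr8:124828014-124828467) had the smallest p between PLT-HSC and PEM-HSC, with a log2 fold change of -0.42 ± 0.23 (unadjusted p = 0.0826, adjusted p = 1.0, same test). It had 8.14, 11.2 and 15.8 CPM in PLT-HSC and 12.6 to 19.5 CPM with a median of 15.9 in PEM-HSC, which overlapped. The change was -0.20 without PLT-HSC replicate 1, and leaving out replicate 3 of that group gave -0.73.

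**Figure D3:**
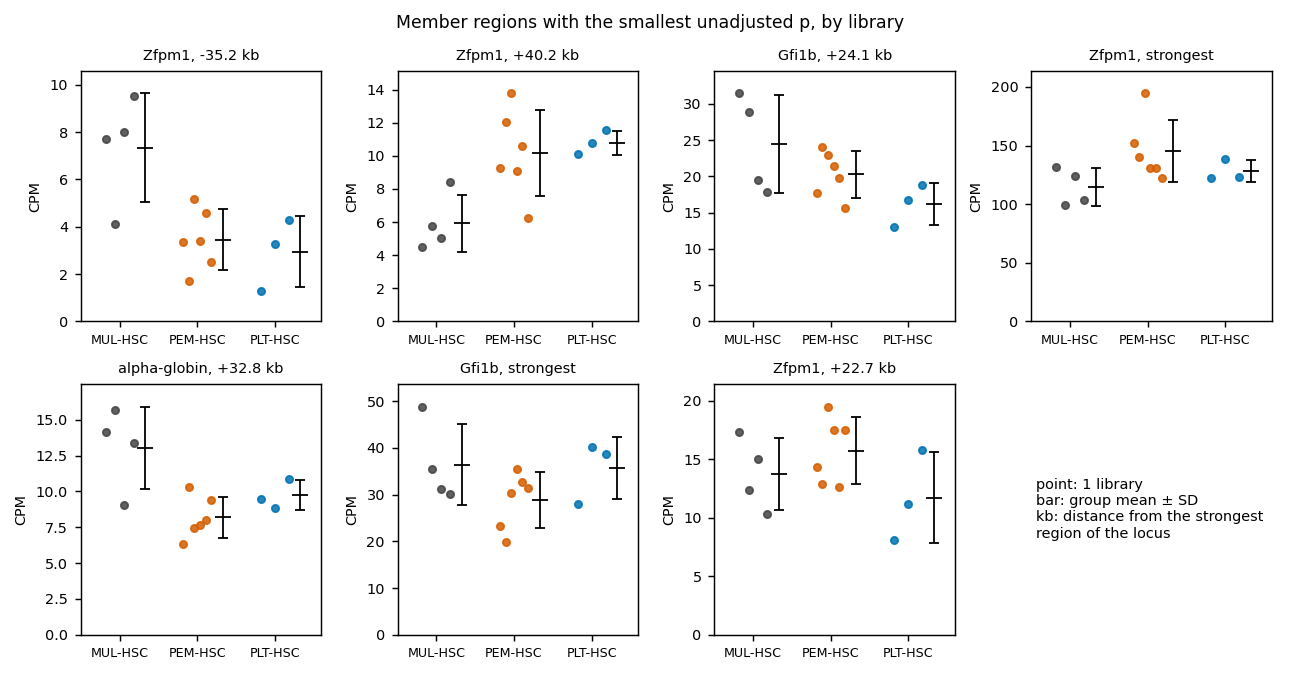
CPM per library (y axis, from 0) of the 7 member regions with the smallest unadjusted p in the 3 comparisons (3 a comparison, some shared), each point 1 library and each bar the group mean ± SD. Groups overlap in every panel for at least 1 pair of groups, and for the Zfpm1 region at +40.2 kb the PLT-HSC libraries (10.1 to 11.5 CPM) lie above the MUL-HSC libraries (4.49 to 8.39 CPM).

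In the globin windows, named after targets of these regulators, the alpha-globin sums were 93.1, 98.4, 106 and 91.5 CPM in MUL-HSC and 100.6, 102 and 98.3 CPM in PLT-HSC. PEM-HSC ran from 89.5 to 100.5 CPM with a median of 94.6, and the sums of all 13 libraries varied by 5.39% (CV), the least of the 7 loci. Of their mean of 96.8 CPM, the strongest region held 26.3 CPM and the region at -2.2 kb 26.4 CPM, and neither was placed on a gene. The strongest alpha-globin region (chr11:32167277-32167860) had 25.7, 15.7, 26.1 and 21.4 CPM in MUL-HSC and 31.6, 29.4 and 27.0 CPM in PLT-HSC, with 23.2 to 32.9 CPM and a median of 27.5 in PEM-HSC. The PLT-HSC libraries lay above the MUL-HSC libraries by a small margin. The log2 fold change was 0.38 ± 0.17 in PLT-HSC (SE; adjusted p = 0.277, edgeR quasi-likelihood test) and 0.31 ± 0.15 in PEM-HSC (adjusted p = 0.383), each against MUL-HSC.

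The alpha-globin region at +32.8 kb (chr11:32199889-32200883) had the lean of opposite sign. MUL-HSC had 14.1, 15.7, 9.03 and 13.3 CPM, PEM-HSC 6.33 to 10.3 CPM with a median of 7.83, and PLT-HSC 9.44, 8.88 and 10.9 CPM. MUL-HSC replicate 3 fell within the PEM-HSC range and the other three lay above it. The log2 fold change in PEM-HSC against MUL-HSC was -0.68 ± 0.23 (SE; unadjusted p = 0.0061, adjusted p = 0.157, edgeR quasi-likelihood test), and -0.83 without MUL-HSC replicate 3 (adjusted p = 0.0655). With 1 surrogate variable it was -0.40 (adjusted p = 0.917, same test). The genes Hba-a1 and Hba-a2 are near-identical copies, and their RefSeq gene starts matched in 297 of 297 bases compared. How reads that match both copies were counted is not known from the sources, so the counts of regions that cover either copy are uncertain.

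The beta-globin window, with 7 regions in 80 kb, was the least accessible per kb and held 49 to 149 counts per library. Its sums were 50.1, 48.8, 35.1 and 41.6 CPM in MUL-HSC, 44.9, 50.9 and 47.5 CPM in PLT-HSC, and 39.2 to 47.6 CPM with a median of 43.4 in PEM-HSC. The MUL-HSC range enclosed PEM-HSC and all but 1 PLT-HSC library. The strongest region (chr7:110957420-110957897) averaged 12.0 ± 2.02 CPM in MUL-HSC (SD, n = 4), 13.2 ± 3.43 in PEM-HSC (SD, n = 6) and 12.3 ± 1.68 in PLT-HSC (SD, n = 3). Its log2 fold change was 0.029 (95% interval -0.50 to 0.56) in PLT-HSC and 0.094 (-0.37 to 0.56) in PEM-HSC, each against MUL-HSC. The 5 tested regions had adjusted p of at least 0.797 against MUL-HSC in both comparisons (edgeR quasi-likelihood test).

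**Figure D4:**
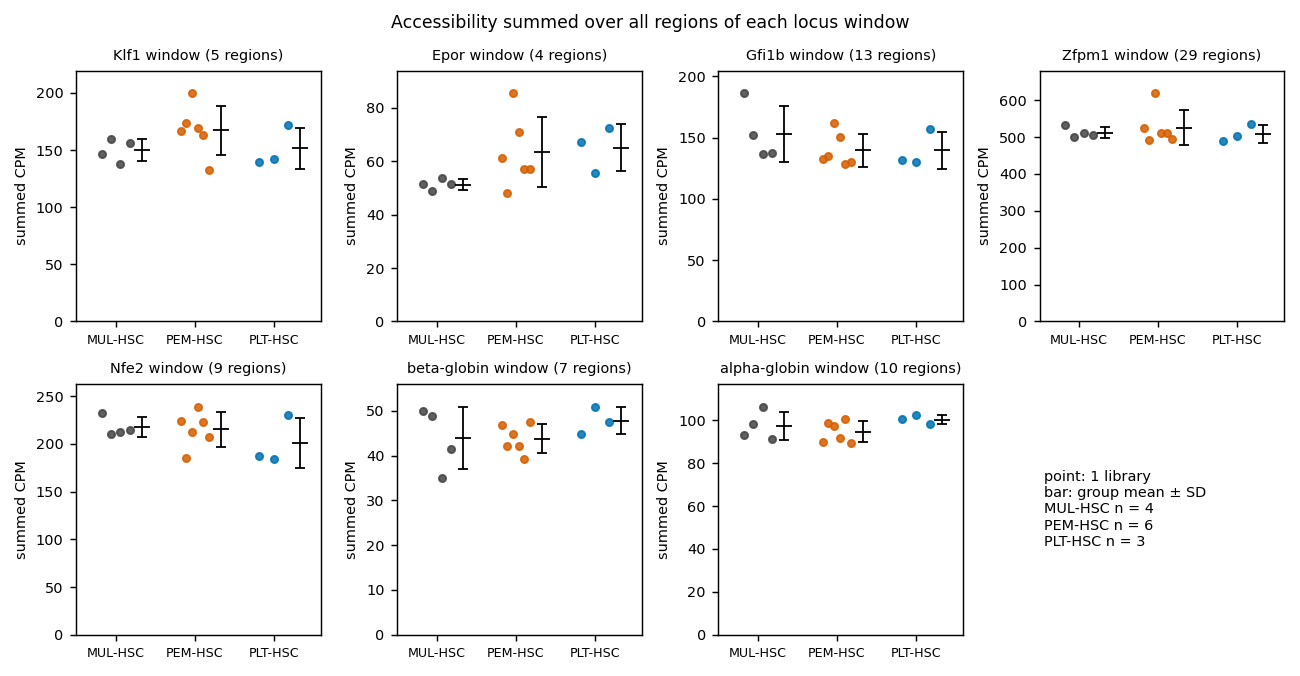
CPM summed over all regions of each of the 7 windows (y axis, from 0), each point 1 library and each bar the group mean ± SD, for MUL-HSC (n = 4), PEM-HSC (n = 6) and PLT-HSC (n = 3). Groups overlap at each locus except Epor, where the PLT-HSC libraries (55.6 to 72.6 CPM) lie above the MUL-HSC libraries (48.8 to 53.7 CPM), and PEM-HSC replicate 3 is the highest PEM-HSC library at Klf1, Epor, Gfi1b and Zfpm1.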

How the data were processed

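The authors deposited a table of unnormalised counts per accessible region for the 13 libraries. The submitters' processing notes name MACS2, Picard, SAMtools, Bowtie2, FastQC and Trim Galore, and mm9 as the build. Their versions, the counting tool, pooling for peak calling, duplicate handling and any shift for the transposase were not given in these sources. Positions are as in the table.

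All regions were fitted in R 4.3.3 with edgeR 4.0.16 (filterByExpr by group, TMM, robust quasi-likelihood fit with 1 coefficient per group, two-sided test), tested on simulated data. P-values were adjusted by Benjamini-Hochberg over 59408 regions and called at 0.05. CPM are counts over the TMM-scaled total of tested regions. Standard errors are the fold change over the root of F, and 95% intervals use its degrees of freedom. Counts carry no molecular identifiers. Members, windows and lists were chosen with earlier results of these data known. Named by rule are the strongest region per kb of each locus, all called members (0), and the 3 of smallest p per comparison. Outside this rule, the Epor region at +25.2 kb and the Zfpm1 regions at -6.3 and +49.7 kb were singled out after their values were seen. Cell type markers and other erythroid genes were not analysed here, since no mm9 annotation was used. Alternatives were DESeq2 1.42.0, 2 other scalings, 2 other filters, the compared groups alone, no robust estimation, a replicate block, the library total or 1 surrogate variable (sva 3.50.0) as covariate, no libraries under 2000000 counts, and leaving out each library.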

Additional observations from a re-analysis of the deposited data

Results flagged for a closer look

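The summed level of the Zfpm1 window in PEM-HSC replicate 3 was 618 CPM, apart from the 493 to 524 CPM of the other 5 PEM-HSC libraries. Its gap to the next library took 0.750 of the group's range, above the 95% limit of Dixon's test for 6 samples. This was 1 of 40 groups of values examined in this way, and chance marks about 1 in 20. The same library was the highest of its group at 4 of the 7 loci and had the lowest TMM factor of the 13 libraries, 0.965, and the part of that scaling in its level was not tested.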

How the results depend on the processing

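No member region was called in any of the 3 comparisons under any alternative, with 1 exception: without PLT-HSC replicate 3, the Zfpm1 region at -35.2 kb passed in PLT-HSC against MUL-HSC, so that the count ranged from 0 to 1 over the fits that leave out 1 library. With the replicate number as a block (PEM-HSC replicates 5 and 6 left out, whose numbers no other group has) the count was 0 in each comparison. The deviations of same-numbered libraries correlated at -0.135 to 0.0962 over all tested regions. Those include weak regions with few counts, so the correlations do not settle whether the numbers pair the samples. Of 28 fold changes of named members, all uncalled, 7 turned in direction under some alternative. Among these, 6 were under 0.1 in size on the log2 scale and 1, the strongest Gfi1b region in PEM-HSC against MUL-HSC, was at -0.28. The directions of the members not named were not followed. For the strongest Gfi1b region the log2 fold change in PLT-HSC against MUL-HSC became 0.0095 with the replicate block, 0.45 with 1 surrogate variable and 0.20 without the libraries under 2000000 counts, and ranged from -0.13 to 0.14 over single libraries left out. In PEM-HSC against MUL-HSC it became 0.099 with 1 surrogate variable and 0.012 without the libraries under 2000000 counts. For the strongest beta-globin region, PLT-HSC against MUL-HSC became -0.023 with the replicate block and ranged from -0.054 to 0.14 over single libraries left out, PEM-HSC against MUL-HSC ranged from -0.027 to 0.22, and PLT-HSC against PEM-HSC from -0.19 to 0.051, with 0.0047 when the library total was a covariate. The strongest Nfe2 region in PEM-HSC against MUL-HSC became 0.0054 with 1 surrogate variable and 0.074 without the libraries under 2000000 counts. The strongest Epor region in PLT-HSC against PEM-HSC became 0.050 with 1 surrogate variable and ranged from -0.11 to 0.033 over single libraries left out. Sums over tested regions alone moved by more than 1 SD, with fewer regions summed, to 47.3 CPM for Epor in MUL-HSC, to 39.4 and 42.8 CPM for beta-globin in PEM-HSC and PLT-HSC, and to 90.6, 88.0 and 91.2 CPM for alpha-globin in MUL-HSC, PEM-HSC and PLT-HSC. Causes were not tested. The 19 members not tested held at most 110 counts in all. Some tested members held as few, such as 98 for the Gfi1b region chr2:28462534-28462803, since the filter works by library and not on the total.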
